A study of Mus musculus with 12 samples.

Results

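The epidermal differentiation complex, with the S100 genes at both of its ends, was taken as all regions in any list that overlapped chromosome 3 from 90.27 to 93.40 Mb in mm9, a window of 3.13 Mb. This gave 440 of the 313566 regions in the 11 region lists. By position alone, 74 regions came from the H3K4me1 list of the female WT line, 61 from that of female KO, 73 from male WT and 89 from male KO. The female WT line added 37 regions of H3K4me3, 68 of H3K27ac and 11 of H3K27me3. KDM6A gave 5 regions in female WT and 4 in female KO, and MLL4 gave 3 and 15.

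The data are ChIP-seq region lists from untreated cell lines of mouse pancreatic tumours, kept in F12/DMEM with EGF. Genotype was labelled KDM6A-WT or KDM6A-KO and sex was given in the titles, with 1 library per group and no statement of clones, driver alleles or animal age. The cell type field of every library, WT included, gives K6A null murine pancreatic cancer as the origin, so the KO and WT of the genotype field are used here as labels. H3K4me1 was listed for KO and WT lines of both sexes, KDM6A and MLL4 (antibody KMT2D) for the female pair, and H3K4me3, H3K27ac and H3K27me3 for female WT. A 12th library, an input from female WT, was not analysed here.

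The complex holds gene families used in the last steps of skin cell differentiation. Loricrin, involucrin (Ivl) and the small proline-rich (Sprr) and late cornified envelope (Lce) proteins are cross-linked into the envelope of dying keratinocytes. Filaggrin (Flg), hornerin (Hrnr), repetin (Rptn) and trichohyalin (Tchh) are large proteins with an S100-type start that bind keratin filaments. The S100 proteins are small calcium-binding proteins: S100a8 and S100a9 form calprotectin of neutrophils and inflamed epithelium, S100a4 and S100a6 are found in many motile and tumour cells, and S100a10 and S100a11 bind annexins. H3K4me1 marks enhancers, H3K27ac active elements, H3K4me3 promoters, and H3K27me3 is the Polycomb mark of silenced genes. KDM6A removes H3K27me3 and works in complexes with MLL4, which writes H3K4me1.

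RefSeq's table of another build, GRCm38.p6, lists 70 protein-coding genes from S100a1 to S100a10, of which 15 are S100, 14 Sprr and 21 Lce genes. Their order there begins with 12 S100 genes, from S100a1 to S100a9. It goes on with the peptidoglycan-recognition genes Pglyrp4 and Pglyrp3, then Lor, the Sprr genes, Ivl, the Lce genes, Crnn, Flg2, Flg, Hrnr, Rptn, Tchh and Tchhl1, and ends with S100a11 and S100a10. That table gives names and order alone. No gene was placed on an mm9 position, so the results below are given by region and by bin, and the pancreatic origin of the lines could not be checked against marker genes.

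Depth is known only as reads inside listed regions, from 108165 for MLL4 of female WT to 17526099 for H3K4me3. The list labelled KDM6A in KO has more regions than the one in WT, 5961 against 2847. The male lists, like the female ones, hold 0 regions on the Y chromosome. With 1 library per group no comparison has a replicate check and none was tested. Intervals in brackets are exact Clopper-Pearson intervals at 95%, cover counting error only, and treat regions as independent.

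The window was rich in acetylated chromatin and poor in H3K27me3. H3K27ac of female WT covered 340.8 kb, or 10.9% of the window, against 4.51% of the span of all chromosomes, a ratio of 2.41. H3K4me3 covered 127.2 kb, 4.06% against 2.88%. H3K27me3 went the other way, with 84.4 kb or 2.70% of the window against 10.5% of the span, a ratio of 0.256. The rest of chromosome 3 was covered to 4.13% by H3K27ac and to 6.83% by H3K27me3, so both contrasts were also present within the chromosome.

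H3K4me1 covered 303.8 kb of the window in female WT, 326.8 kb in female KO, 351.2 kb in male WT and 535.4 kb in male KO. Relative to the span of all chromosomes the WT lists were near their average here, at 1.09 times for female and 1.11 times for male. The KO lists were above theirs, at 1.75 and 2.24 times. Against the rest of chromosome 3 the WT lists were also higher here, at 9.71% against 7.91% in female and 11.2% against 8.03% in male lines. The KO lists covered 10.4% against 5.01% in female and 17.1% against 8.82% in male lines. Reads in the H3K4me1 regions of the window came to 13912.5 in female WT, 15392.1 in female KO, 21535.7 in male WT and 36247.3 in male KO, where regions across a border count in proportion to the part inside. Reads per kb of region differed less than the covered length did, at 45.8 and 47.1 in the female lines and 61.3 and 67.7 in the male lines.

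**Figure D1:**
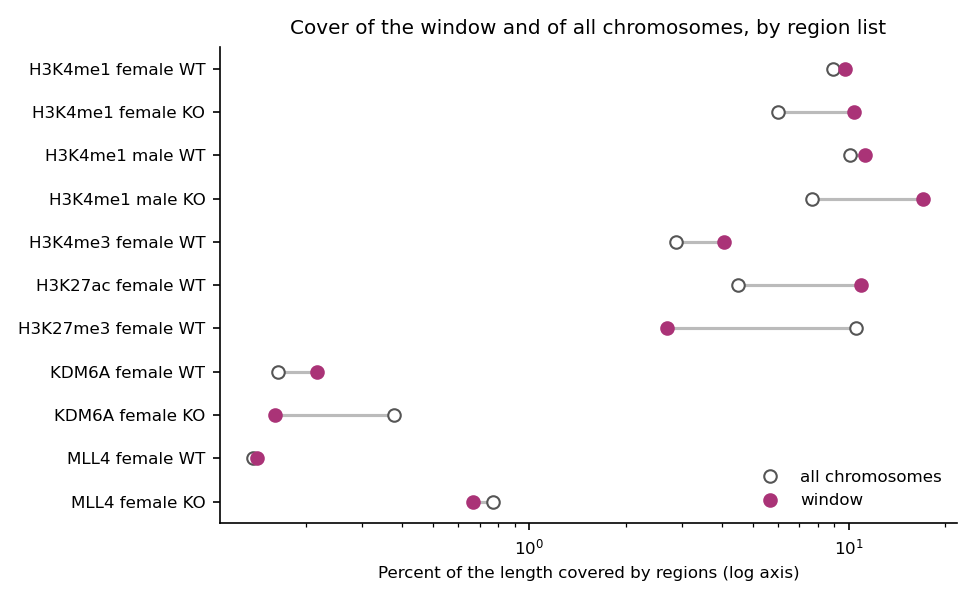
Percent of length covered by regions of each list, on a log axis, in the window (filled) and over all chromosomes (open); 1 library per list. H3K27ac lies at 10.9% against 4.51%, H3K27me3 at 2.70% against 10.5%, and both H3K4me1 KO lists lie to the right of their genome value.

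Along the window, cut into 32 bins of 100 kb of which the first holds only its last 30 kb, the lists were concentrated in 3 stretches. These stretches were set after the values were seen, as runs of bins in which the H3K4me1, H3K27ac and H3K4me3 lists together covered at least 5 kb. The first ran from 90.27 to 90.6 Mb, the central one from 91.8 to 92.9 Mb and the last from 93.1 to 93.4 Mb. Between them lay 12 bins from 90.6 to 91.8 Mb and 2 bins from 92.9 to 93.1 Mb with little or no signal. In all, 77.6% of the window was in no list.

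The first stretch combined promoter and enhancer marks. In female WT, H3K27ac covered 29.0% of it and H3K4me3 16.7%. H3K4me1 covered 32.8% of it in female WT, 39.2% in female KO, 33.8% in male WT and 46.7% in male KO. Its leading H3K4me3 region, chr3:90415401-90421600, held 2538 reads over 6.20 kb, and lay within the H3K27ac region chr3:90414201-90436800 of 22.6 kb and 1992 reads. Around it H3K4me1 was listed as 1 region of 39.2 kb in male KO, chr3:90398601-90437800, with 3805 reads, the longest and most read H3K4me1 region of the window in any line. In the other lines the same interval was split, and the leading pieces were chr3:90418401-90434400 in female WT with 785 reads, chr3:90418401-90436200 in female KO with 1145 reads and chr3:90399201-90413200 in male WT with 1307 reads.

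The last stretch had the highest H3K27ac share, 31.4%, but less of it than of the first stretch was covered by H3K4me3, 14.5%, and by H3K4me1, with 26.9% in female WT, 33.1% in female KO, 29.1% in male WT and 43.5% in male KO. Its bin from 93.3 to 93.4 Mb held 72.0 kb of H3K27ac and 32.0 kb of H3K4me3, and H3K4me1 covered 72.6 kb in female WT, 80.2 kb in female KO, 76.4 kb in male WT and 84.8 kb in male KO. That bin had the most H3K4me1 of the window in all 4 lines. The H3K4me3 region with the most reads in the window, chr3:93319601-93330800 with 3432 reads over 11.2 kb, lay there, as did the next, chr3:93355601-93364800 with 2631 reads over 9.20 kb. H3K27ac reached its most reads at chr3:93308201-93332400, with 2413 reads over 24.2 kb. Both H3K4me3 regions were overlapped by H3K4me1 in all 4 lines, over 82.1% to 100% of their length.

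The central stretch carried H3K27ac and, over a smaller part of its length, H3K4me3. H3K27ac covered 150.8 kb in 36 regions, or 13.7% of the stretch, and H3K4me3 28.6 kb in 12 regions, or 2.60%. H3K4me1 covered 114.8 kb there in female WT, 98.2 kb in female KO, 152.2 kb in male WT and 243.6 kb in male KO. The signal was densest from 92.1 to 92.4 Mb, where H3K27ac covered 37.2, 34.6 and 30.2 kb of 3 successive bins. From 92.4 to 92.9 Mb no bin held more than 4.80 kb of H3K27ac. The leading H3K4me3 regions of this stretch were chr3:91883401-91887400 with 1334 reads, chr3:92142001-92146400 with 966 reads and chr3:92286801-92291200 with 916 reads.

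**Figure D2:**
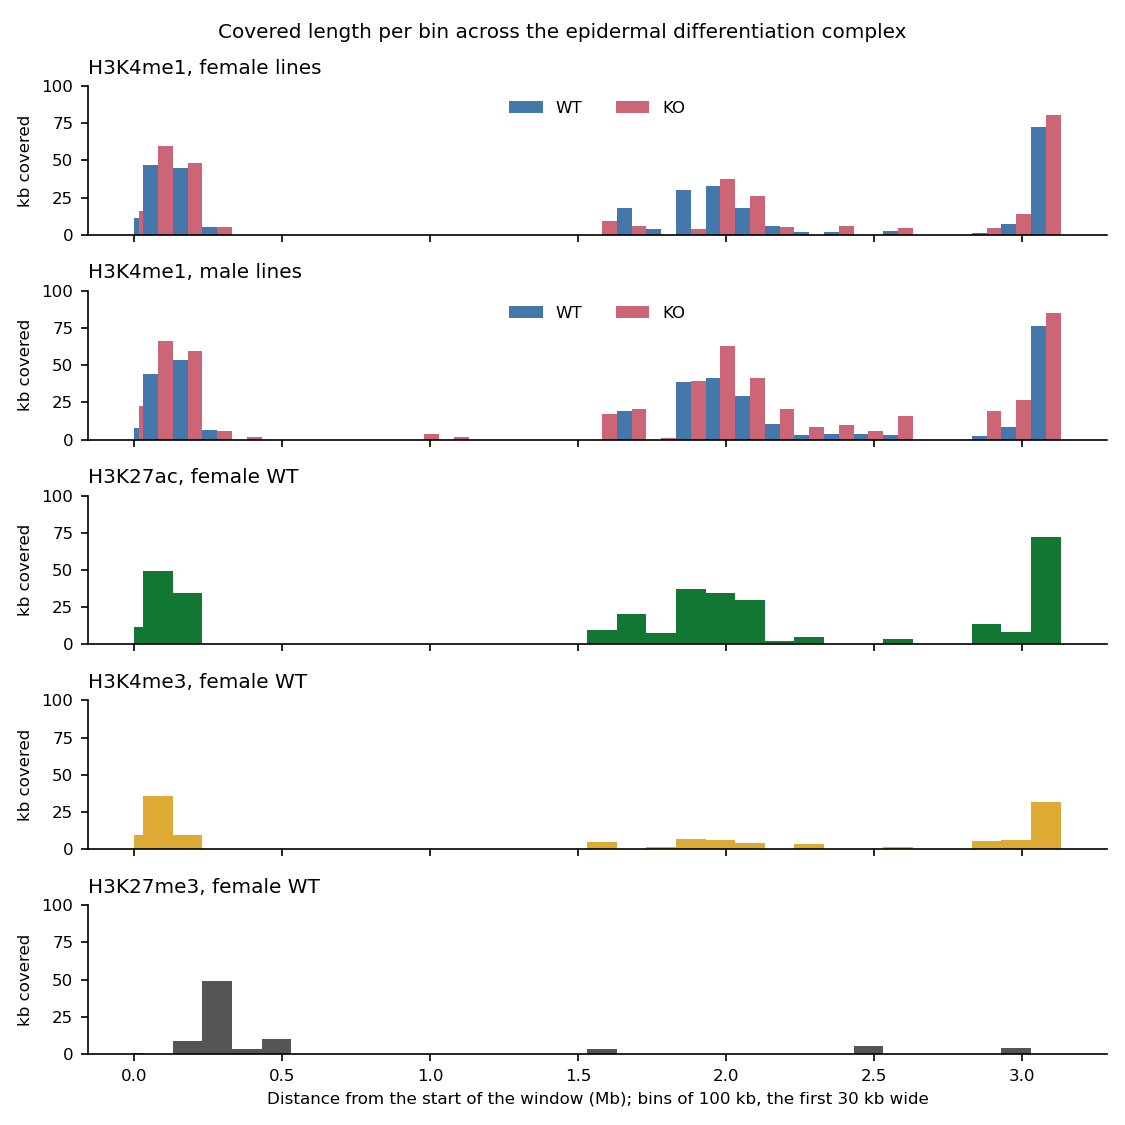
Covered length in kb per 100 kb bin against the distance from the start of the window, for H3K4me1 of WT and KO in each sex and for the marks of female WT; 1 library per bar. Signal stands in 3 stretches, and H3K27me3 peaks at 49.2 kb in the last bin of the first stretch.

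H3K27me3 was most extensive on the inner side of the first stretch. The bin from 90.5 to 90.6 Mb held 49.2 kb of it and the bin before it 9.0 kb. With the 9.80 kb from 90.7 to 90.8 Mb, these 3 leading bins held 80.6% of its length in the window. Its 5 longest regions included chr3:90538201-90565000 of 26.8 kb with 594 reads, chr3:90513001-90524800 of 11.8 kb with 314 reads, chr3:90489201-90498200 of 9.0 kb with 202 reads and chr3:90525801-90533200 of 7.40 kb with 171 reads, all 4 in the bins from 90.4 to 90.6 Mb. The remaining one of the 5, chr3:90261001-90270400 of 9.40 kb with 261 reads, reached only 400 bp into the window. A further region of 3.20 kb lay among them, and outside these bins H3K27me3 was thin. A pair of regions of 7.40 and 5.60 kb began at 90696801 and 90712201, and single regions of 3.4, 5.20 and 4.20 kb began at 91883201, 92753201 and 93275001.

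Active and H3K27me3 parts were nearly separate. The union of H3K27ac and H3K4me3 covered 349.6 kb of the window and H3K27me3 84.4 kb, a ratio of 4.14 where the whole lists gave 0.481. They shared 3.60 kb, which is 4.27% of the H3K27me3 length here against 2.48% over all chromosomes. Of the 19 bins with either, 15 had more active than H3K27me3 length, or 78.9%, where all bins of the genome gave 50.6%. H3K27me3 was the longer in 4 bins, or 21.1%, against 49.2% over all bins, and these were the 3 bins from 90.5 to 90.8 Mb and the bin from 92.7 to 92.8 Mb. Active length was 50.8 kb from 90.3 to 90.4 Mb with no H3K27me3. The next bin held 34.8 kb of it beside 9.0 kb of H3K27me3, and the one from 90.5 to 90.6 Mb held 0 kb beside 49.2 kb.

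Only 2 of the 37 H3K4me3 regions carried H3K27me3, 5.41% [0.661 to 18.2] against 16% for the whole list, while 36 of 37 carried H3K27ac, 97.3% [85.8 to 99.9] against 82.9%. One of the 2 is the region at the border, chr3:90269001-90271000. The other was the leading promoter mark of the central stretch, chr3:91883401-91887400, where H3K27me3 lay at chr3:91883201-91886600 with 90 reads and H3K27ac at chr3:91884401-91885800 with 94 reads. These marks were listed from 1 line at this site. H3K4me1 was listed in female KO over 45.0% and in male KO over 100% of the H3K4me3 length, and in neither WT line.

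The KO lists were set against the WT lists to ask whether the enhancer mark of the complex differs with genotype. Covered length in KO was 1.08 times that in WT in the female lines and 1.52 times in the male lines. Over the whole lists KO was the shorter in both sexes, at 0.671 and 0.759 times. The female value is close to 1, and with regions within 5 kb merged it was 0.997. On the rest of chromosome 3 the ratio was 0.633 in the female lines but 1.1 in the male lines, so in the male lines the chromosome around the window also had the longer list in KO. The part of this in the result was not tested. The shares over the genome given below for male bins and regions are not specific to this chromosome. Tiles of the window's length along all chromosomes had more covered length in KO in 97 of 760 cases (12.8%) in the female lines and in 176 of 790 (22.3%) in the male lines. As a share of all reads in listed regions of the same library, the window had 1.66 times as much in female KO as in female WT, and 2.24 times as much in male KO as in male WT.

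H3K4me1 of the WT lines was mostly kept in KO. Of the 74 female WT regions, 21 had no KO region, which is 28.4% where the whole list gave 51.1%, and 53 were shared, 71.6% [59.9 to 81.5]. With KO and WT lists cut to equal size by reads, the shared part was 90%. In the male lines 5 of 73 WT regions had no KO region, 6.85% against 42.0%, and 68 were shared, 93.2% [84.7 to 97.7]. More WT regions overlapped H3K27ac of female WT here than in the whole lists, 81.1% against 47.4% in female and 78.1% against 42.8% in male WT. Among those, 12 of 60 in female WT had no KO region, where the whole list gave 4699 of 26605. For male WT it was 1 of 57, where the whole list gave 2309 of 27490. How much of the contrast with the whole lists goes with H3K27ac was not tested. In the other direction, 14 of 61 female KO regions had no WT region, 23.0% against 23.4% for the whole list. The male KO list had 34 such regions among 89, 38.2% against 25.4%. The female WT regions without KO were shorter than the shared ones, with a median of 1800 against 3600 bp, and held fewer reads, with a median of 60.0 against 156.0.

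By bins with at least 2 kb in either list, the female lines had 16 to compare. KO was at least 1.5-fold lower in 3 of them, 18.8% against 51.6% of all bins of the genome, and at least 1.5-fold higher in 5, or 31.2% against 18.2%. In the male lines 18 bins were compared. None was lower, against 43.8% of all bins, and 12 were higher, which is 66.7% against 21.4%. The bins higher in KO in both sexes were 5 of the 15 compared in both: 91.8 to 91.9 Mb, 92.6 to 92.7 Mb, 92.8 to 92.9 Mb, and the pair from 93.1 to 93.3 Mb. How often bins of the genome are higher in both sexes was not counted, so this number has no share beside it. In the bin from 91.8 to 91.9 Mb H3K4me1 covered 0 kb in either WT line, 9.60 kb in female KO and 17.2 kb in male KO. In the bin from 93.1 to 93.2 Mb it covered 1.0 kb in female WT, 4.80 kb in female KO, 2.60 kb in male WT and 19.2 kb in male KO.

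The 3 bins lower in female KO were neighbours, from 91.9 to 92.2 Mb. Covered length in female WT and KO was 17.8 and 6.0 kb in the first, 4.20 and 0 kb in the next and 29.8 and 3.60 kb in the last. Their reads were 665 and 210, 114 and 0, and 1441 and 135. The male lines did not show this. Male WT and KO had 19.0 and 20.4 kb in the first of these bins and 39.0 and 39.4 kb in the last, with 2345 and 2285 reads there. Within the bin from 92.1 to 92.2 Mb female WT carried 37.2 kb of H3K27ac and female KO carried 2 MLL4 regions. The leading female WT region with no KO counterpart lay in it, chr3:92104401-92114600, with 670 reads over 10.2 kb, the fourth of the window's female WT regions by reads.

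**Figure D3:**
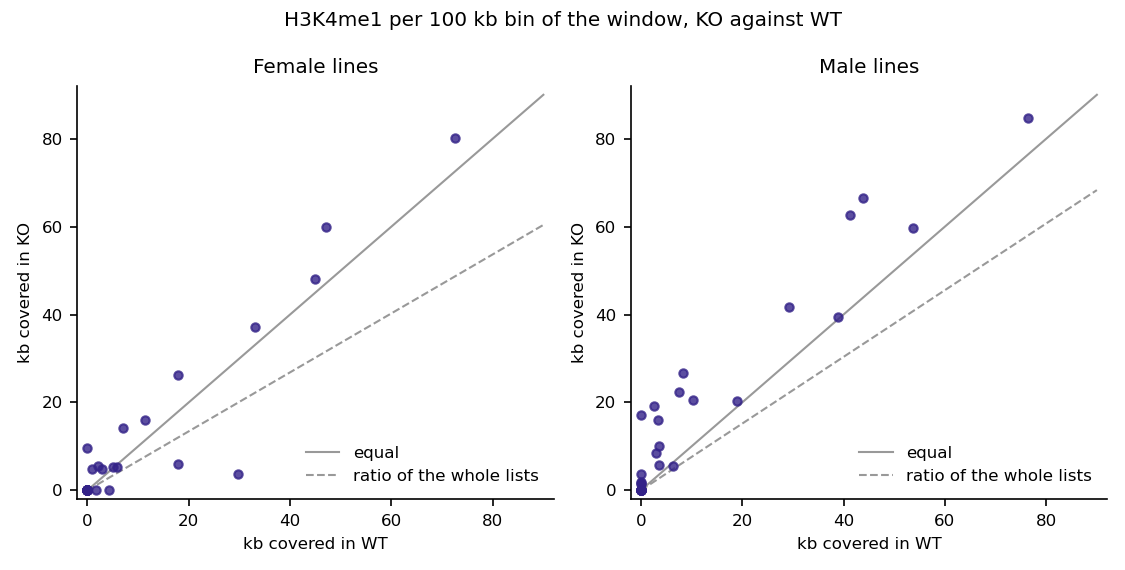
H3K4me1 covered length in kb of each 100 kb bin of the window in KO (y axis) against WT (x axis), female left and male right; the solid line marks equal length and the dashed line the ratio of the whole lists, 0.671 and 0.759. Most filled bins lie on or above the solid line, and in the female panel the bins with 29.8 and 17.8 kb in WT and 3.60 and 6.0 kb in KO lie far below it.

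The other leading regions of female WT alone were chr3:92173801-92182400 with 305 reads, chr3:91924001-91927400 with 138 reads, chr3:92143601-92145400 with 130 reads and chr3:91961401-91963800 with 78 reads. All 5 lay between 91.9 and 92.2 Mb, 4 were overlapped by H3K27ac, and 4 were listed in male WT and in male KO. Of all 21 regions of female WT alone, 12 carried H3K27ac, 57.1% against 16.4% over all chromosomes. Of all 74 female WT regions of the window, 60 carried it, 81.1% against 47.4% of the whole list. The regions of female WT alone thus carried H3K27ac less often than the window's female WT regions as a whole. Male WT listed 8 of the 21, 38.1% against 64.5%, and male KO 15, 71.4% against 32.3%. Of all 74, male WT listed 58, 78.4% against 77.7% of the whole list, and male KO 68, 91.9% against 61.0%. The female KO regions with no female WT counterpart were led by chr3:91833801-91841400 with 366 reads, chr3:92257401-92261800 with 209 reads, chr3:93169001-93173800 with 147 reads, chr3:92340201-92345000 with 136 reads and chr3:93287201-93291000 with 130 reads. All 5 of these were also listed in male KO, and 4 of them carried H3K27ac of female WT. Of all 14 regions of female KO alone, 13 were listed in male KO, 92.9% against 61.5% over all chromosomes. H3K27ac lay on 6 of them, 42.9% against 35.6%. Of all 61 female KO regions of the window, male KO listed 60, 98.4% against 84.0% of the whole list. H3K27ac lay on 48 of the 61, 78.7% against 69.4%. Being listed in male KO was thus not particular to the regions of female KO alone. Acetylated sites of female WT included some where H3K4me1 was listed in KO and not in WT.

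The 5 male WT regions without a KO counterpart were led by chr3:90471801-90474400 with 166 reads, chr3:90482601-90485800 with 146 reads and chr3:90505601-90507200 with 78 reads. These 3 lie in the bins from 90.4 to 90.6 Mb and carry no other mark. The next, chr3:92208801-92210400 and chr3:91971001-91973000, held 78 and 57 reads. The 34 male KO regions without a WT counterpart had a median of 83.0 reads and 2200 bp, close to the 78.0 reads and 2000 bp of the male WT ones. They were led by chr3:93165001-93174000 with 695 reads over 9.0 kb, chr3:91835001-91841800 with 572 reads over 6.80 kb, chr3:92218801-92225400 with 241 reads, chr3:91883201-91888800 with 225 reads and chr3:92802201-92806600 with 214 reads. Each of these 5 was overlapped by H3K4me1 of female KO and by none of female WT. This did not hold for all 34: 10 were listed in female KO, 29.4% against 29.6% over all chromosomes, and 7 in female WT, 20.6% against 26.2%.

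Merging the 4 H3K4me1 lists gave 93 regions in the window. All 4 lines were present in 33 of them, 35.5% against 24.0% of the 77333 merged regions of the genome, and 30 of these 33 carried H3K27ac. Both WT lines shared 40 regions; female KO lacked 7 of these (17.5% against 43.8%) and male KO lacked 1 (2.50% against 29.9%). The pattern of both KO lines and no WT line was found 8 times, 8.60% against 2.16% of all merged regions. These 8 span 2.0 to 9.0 kb, and 4 of them carried H3K27ac of female WT, among them chr3:91833801-91841800, chr3:91883201-91888800 and chr3:93165001-93174000, which also carried H3K4me3. Male KO alone accounted for 18 regions, 19.4% against 9.32%. They had a median of 2.10 kb, and 1 of them carried H3K27ac. Marks on the merged regions were not counted over the genome, so these counts with H3K27ac or H3K4me3 have no share beside them.

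Sorted by the chromatin beneath it in female WT, H3K4me1 of WT was kept in KO more in the active part than in the unmarked part. There 82.5% of the female WT length was also listed in KO, against 76.6% over all chromosomes, and 97.6% of the male WT length, against 85.6%. Where neither active marks nor H3K27me3 were listed, 39.0% of 73.8 kb was kept in the female lines, against 22.8%, and 70.2% of 98.0 kb in the male lines, against 33.8%. In the active part KO covered 1.05 times the WT length in the female lines and 1.27 times in the male lines. The whole lists gave 0.941 and 1.02 for that part. In the unmarked part KO covered 84.4 kb in female and 211.4 kb in male lines. This is 1.14 and 2.16 times WT, where the whole lists gave 0.474 and 0.615. Of the male KO length outside WT, 142.6 kb lay there and 74.8 kb in the active part. The marks are those of the female WT line, and marks of the male lines were not used here. H3K4me1 and H3K27me3 hardly met. Of the 80.8 kb with H3K27me3 alone, WT H3K4me1 covered 1.40 kb in female and 1.20 kb in male lines, and KO 2.0 and 3.20 kb. That WT length was kept to 100% in both sexes, but it is too little for a statement on what was kept.

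**Figure D4:**
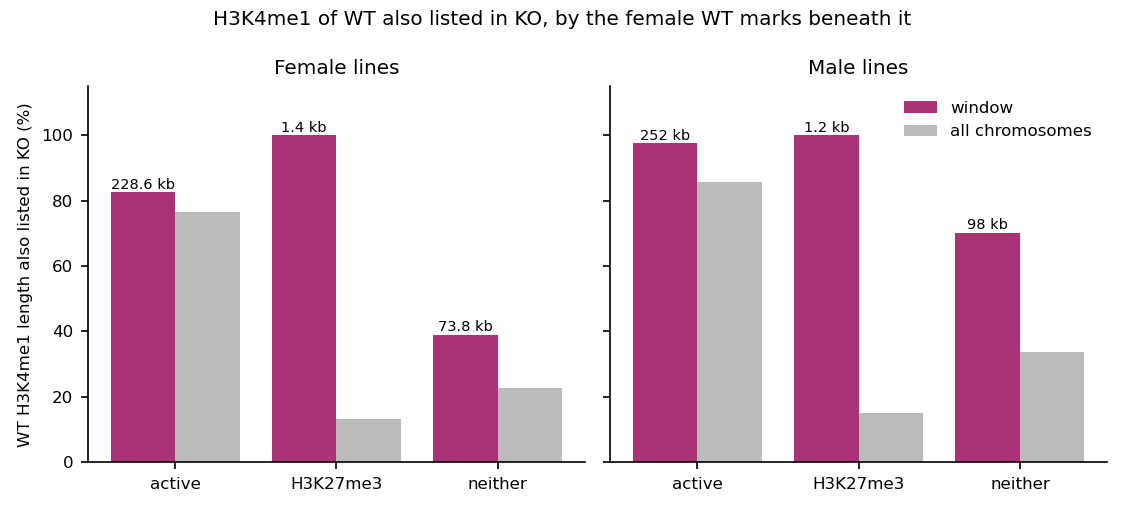
Percent of the WT H3K4me1 length also listed in KO, in the part with H3K27ac or H3K4me3, with H3K27me3 alone, or with neither, for the window and all chromosomes; labels give the WT length in the window. The active part is kept to 82.5% and 97.6%, and the H3K27me3 bars rest on 1.40 and 1.20 kb.

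Of the 68 H3K27ac regions, H3K4me1 overlapped 54 in female WT (79.4% [67.9 to 88.3], whole list 84.2%) and 51 in female KO (75.0% [63.0 to 84.7], whole list 75.7%). In male WT it overlapped 54 (79.4% [67.9 to 88.3], whole list 89.1%) and in male KO 63 (92.6% [83.7 to 97.6], whole list 88.6%). All 4 lines had H3K4me1 at 44 of the 68, a count not made for the whole list. The 16 H3K27ac regions of the first stretch had it in 16, 16, 15 and 16 cases in female WT, female KO, male WT and male KO, and the 36 of the central stretch in 26, 21, 26 and 31. In the last stretch, 12, 14, 13 and 16 of 16 had it. Of the 37 H3K4me3 regions, H3K4me1 overlapped 31 in female WT (83.8%, whole list 81.1%), 29 in female KO (78.4%, whole list 77.8%), 27 in male WT (73.0%, whole list 82.9%) and 36 in male KO (97.3%, whole list 90.8%). The female shares were near those of the whole list, the male WT share was below and the male KO share above. The promoter mark lacking H3K4me1 in male KO was chr3:92534201-92537800 with 188 reads.

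KDM6A and MLL4 had few regions in the complex, from lists that are short everywhere. KDM6A covered 0.217% of the window in female WT and 0.160% in female KO, where it covered 0.164% and 0.377% of the span of all chromosomes and 0.114% and 0.140% of the rest of chromosome 3. MLL4 covered 0.141% in female WT and 0.665% in female KO, against 0.137% and 0.770% of the span and 0.0834% and 0.350% of the rest of the chromosome. KDM6A of female WT had 5 regions of 35 to 53 reads and KDM6A of female KO 4 regions of 35 to 47 reads. No region was common to both, where 91.0% of all WT and 95.6% of all KO regions lack a counterpart. The WT regions chr3:91980001-91981000, chr3:92322001-92323800, chr3:92402801-92404400 and chr3:93151601-93152800 were overlapped by no mark of female WT, and 3 of these 4 overlapped H3K4me1 of male KO in part. In all, 4 of 5 KDM6A regions of WT overlapped male KO H3K4me1, 80.0% [28.4 to 99.5] against 48.5% of the whole list. The other lines went the other way. H3K4me1 of female WT, female KO and male WT each overlapped 1 of 5 [0.505 to 71.6], against 61.5%, 38.6% and 59.2% of the whole list. Each of these intervals includes the share of the whole list. The KDM6A region of WT outside the 4 named above, chr3:93382801-93384000 with 51 reads, had the same borders as an MLL4 region of female WT with 40 reads. This KDM6A region carried H3K4me1 in all 4 lines, H3K4me3 and H3K27ac. The KO regions, chr3:90293401-90294800, chr3:90313201-90314400, chr3:93340401-93341600 and chr3:93356801-93358000, all overlapped H3K4me3 and H3K27ac of female WT, 4 of 4 [39.8 to 100] against 26.6% and 34.5% of the whole list. These regions come from the line labelled KO.

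MLL4 had 3 regions in female WT and 15 in female KO, and lists of 2130 and 13152 regions stand behind them. The WT regions were chr3:90389201-90391800 with 89 reads, chr3:93382801-93384000 with 40 reads and chr3:90378801-90379400 with 26 reads. Those at 90389201 and 90378801 were also listed in KO, with 130 reads at chr3:90389201-90392200 and 71 reads at chr3:90378401-90380000. That left 1 of 3 WT regions without a KO counterpart, where the whole list gave 71.7%, and 13 of 15 KO regions without a WT counterpart, where it gave 95.2%. After these, the KO regions with the most reads were chr3:90416001-90418000 with 65, chr3:90418401-90419800 with 60, chr3:93340401-93341800 with 58, chr3:93324401-93326200 with 57, chr3:93309801-93311400 with 52 and chr3:90408001-90409000 with 49 reads. Of the 15, 6 lay in the first stretch, 4 in the central and 5 in the last. H3K27ac of female WT overlapped 14 of them, 93.3% [68.1 to 99.8] against 51.3% of all MLL4 regions of KO. H3K27ac also covered more of the window than of the span, 10.9% against 4.51%, and the part of this in the contrast was not tested. H3K27me3 overlapped 0 of the 15, which allows up to 21.8%, against 3.83%. H3K4me1 of female KO overlapped 13 of the 15, 86.7% [59.5 to 98.3] against 56.2%. One of the others, chr3:92105001-92106200 with 30 reads, lay inside the leading H3K4me1 region of female WT alone.

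At the borders of the window, the last regions outside it were near for H3K4me1 and far for H3K27me3. H3K4me1 regions continued 10.4 to 11.4 kb beyond the end in all 4 lines, after regions of 7.80 to 12.0 kb that crossed it with 319 to 888 reads. The next H3K27me3 region lay 679.8 kb beyond the end, and the nearest before the region across the start ended 389.0 kb away.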

How the data were processed

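ChIP-seq region lists from 11 of 12 libraries were used. The submitters' processing notes name Bowtie 1.1.2, SICER 1 and mm9 without roles. Each deposited list belongs to 1 library and holds a count per region, taken as its reads because values are whole and grow with length. Its borders lie on steps of 200 bp. Control library, threshold and mapped depth are not given in the sources used here. Positions are printed from 1. No mm9 genome or annotation was at hand, so no sequence was printed and no gene placed.

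Covered length and reads (spread evenly within a region) were summed in the window and in 100 kb bins. A region counted as overlapped from 1 bp. A bin was compared with at least 2 kb in either list and called at 1.5-fold. Tiles needed 10 kb in WT. Regions were named by reads: the leading 5 found in 1 genotype alone, the leading region per list, the longest H3K27me3 regions, and KDM6A and MLL4 regions up to 10 per list. Others were chosen after their values were seen. With 1 library per group nothing was tested. Overlap steps were tested on simulated data and against bedtools 2.31.1; Python 3.11.15, numpy 2.4.6, pandas 2.3.3, scipy 1.17.1 and matplotlib 3.10.9 were used. The window and the lists of genes were chosen with earlier results of these data known. Alternatives were the upper 50% of each list by reads, equal list sizes, merging within 5 kb, a wider window, other bins and folds; scaling to the whole lists or chromosome was added after seeing the data.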

Additional observations from a re-analysis of the deposited data

Results flagged for a closer look

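The KO over WT ratio of H3K4me1 covered length was on opposite sides of 1 in the female and male lines in 1 stretch and 4 bins. In 0 bins did both sexes pass 1.5-fold in opposite directions. This difference between the sexes was not tested. In the central stretch from 91.8 to 92.9 Mb KO had 0.855 times the WT length in the female and 1.60 times in the male lines. From 91.9 to 92 Mb the ratios were 0.337 and 1.07, and from 92.1 to 92.2 Mb 0.121 and 1.01. The bin from 92.4 to 92.5 Mb gave 0.897 and 2.02, and the one from 90.5 to 90.6 Mb, with 5.0 to 6.40 kb per list, gave 1.08 and 0.875. Set against the ratio of the whole lists, 0.671 in the female lines, the stretch and the bins from 92.4 and from 90.5 Mb lie above it and those from 91.9 and from 92.1 Mb below it. By reads, not scaled to the lists, 2 of the 4 bins were lower in KO in both sexes. From 90.5 to 90.6 Mb there were 284 in WT and 179 in KO of the female and 444 and 186 of the male lines. From 92.1 to 92.2 Mb there were 1441 and 135, and 2345 and 2285. Reads of the whole KO lists were 0.667 (female) and 0.750 (male) times those of WT. The male reads from 92.1 to 92.2 Mb fell by less than that.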

How the results depend on the processing

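Over 40 values and 122 alternative settings, 110 settings left the value within 1.5 times (for shares, within the interval) and on the same side, 11 moved it and 1 reversed it. The reversal was the female H3K4me1 ratio, 1.08, which was 0.997 with regions within 5 kb merged; it was 1.70 relative to the rest of the chromosome. The male ratio was 1.52 to 1.56 unscaled, 1.39 relative to the rest of the chromosome and 2.01 relative to the whole lists. With KO and WT lists of equal size, the best by reads, 90% of female WT regions had a KO region. Bins lower in KO numbered 6 (female) and 1 (male) with bins of 50 kb, which also gives more bins; relative to the whole lists, like the chromosome scaling chosen after seeing the data, 12 female bins were higher in KO. In the upper 50% of each list by reads, H3K27me3 covered 55.4 kb and led in 1 bin, KDM6A of KO covered 1.20 kb with 47.0 reads and MLL4 of WT 2.60 kb with 89.0 reads, since fewer regions remain. No paired analysis was possible because each group holds 1 library. Regions under the unknown threshold may hold signal, so absence from a list is not absence of the mark, and counts between lists move with depth.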

Other observations

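Some H3K4me1 regions of one genotype spanned 2 or more of the other. This held for 10 of the 61 female KO regions, 16.4% against 10.1% of the whole list, and for 5 of the 74 female WT regions, 6.76% against 5.22%. In the male lines it held for 10 of 89 KO regions, 11.2% against 6.38%, and for 2 of 73 WT regions, 2.74% against 4.67%. The whole lists thus have the same order, KO above WT, and no comparison was tested.

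The long quiet stretch was not wholly empty in male KO. H3K4me1 of that line had 4 regions there, 3 of them between 91219801 and 91312600 with 44 to 67 reads, and these separate the longest intervals without a region in any list, chr3:90717801-91219800 of 502.0 kb and chr3:91312601-91814200 of 501.6 kb. Another such interval, chr3:92838601-93150400 of 311.8 kb, lay between the central and last stretches. Whether reads can be mapped in these intervals was not tested.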
